A study of Homo sapiens with 12 samples.

Results

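The 10 genes described here encode the surfactant proteins SFTPA1, SFTPA2, SFTPB, SFTPC and SFTPD, the lamellar body proteins ABCA3, NAPSA and LAMP3, and the transcription factors NKX2-1 and ETV5. They were chosen by gene symbol, and all 10 were found among the 57152 rows with values in the deposited table of TPM, a level scaled by transcript length and by library. The 6 genes SFTPB, SFTPC, SFTPD, ABCA3, NAPSA and ETV5 averaged at least 1 TPM over the 12 libraries and were among the 13968 genes tested. SFTPA1, SFTPA2, LAMP3 and NKX2-1 lay below that level. SFTPB, SFTPC and SFTPD reached it only through the libraries of one of the 2 cell lines, so that a difference between the lines was built into their being tested.

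RNA of human cell lines was sequenced in 4 groups of 3 libraries. A549 is a line of lung adenocarcinoma epithelium, and LB is a second line for which the labels also give A549 as the source. How LB was derived, and whether it is a single clone, is not given in the labels. The A549 group and the first LB group received the vehicle, 0.1% DMSO, for 24 h (A549 DMSO and LB DMSO). The second LB group received 10 μM amiodarone for 24 h, and the third the same amiodarone after 24 h of culture with 10 mg/ml hydroxypropyl-β-cyclodextrin (HPbCD). A preincubation of 24 h before the drug or vehicle is listed for the libraries of all 4 groups. Amiodarone is a cationic amphiphilic antiarrhythmic drug that accumulates in lysosomes and disturbs their handling of phospholipid, and HPbCD is a sugar ring that carries cholesterol. LB cells with HPbCD alone and A549 cells with either agent are not analysed here, so an effect of HPbCD without amiodarone cannot be told apart from its effect with it.

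Surfactant is the film of phospholipid and protein that keeps alveoli open. Alveolar type II cells store it in lamellar bodies, lysosome-related organelles that are filled with phospholipid by the transporter ABCA3 and secreted whole. SFTPB and SFTPC are small hydrophobic proteins cut from larger precursors on the way to the lamellar body, whereas SFTPA1, SFTPA2 and SFTPD are collectins, sugar-binding proteins of lung defence. NKX2-1 is the transcription factor that defines lung epithelium and drives surfactant genes, and ETV5 is an ETS factor that acts below FGF and ERK signalling in type II cells.

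Depth cannot be had from TPM, which summed to between 999449 and 999632 in each library, and 20966 to 22261 rows were above 0. Pearson's r of log2(TPM + 1) was 0.985 to 0.989 between libraries of a group and 0.943 to 0.986 between groups. Mitochondrially encoded genes held 5.38 to 9.19% of TPM. Whether the 3 libraries of a group came from different cultures is not stated. The p-values thus reflect the spread of these libraries alone, which may be technical.

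Stretches upstream of 4 of the genes are shown. That of SFTPB held several NKX2-1-type motifs, and those of SFTPD, ABCA3 and SFTPA2 held none. This motif thus does not set SFTPA2, which was near 0 in every library, apart from SFTPD and ABCA3. The stretches were read 5′ to 3′ on the gene's strand from RefSeq start sites on GRCh38.p14, without bases inside annotated exons. The SFTPB stretch is chr2:85668252-85668449 (minus strand), the SFTPD stretch chr10:79949106-79949355 (minus), the ABCA3 stretch chr16:2340747-2340921 (minus) and the SFTPA2 stretch chr10:79560408-79560657 (minus). Capitals mark matches on either strand to the NKX2-1-type motif GCNCTNNAG, the forkhead motif TGTTTAC, the ETS core GGAAG or the TATA box TATAA.
SFTPB: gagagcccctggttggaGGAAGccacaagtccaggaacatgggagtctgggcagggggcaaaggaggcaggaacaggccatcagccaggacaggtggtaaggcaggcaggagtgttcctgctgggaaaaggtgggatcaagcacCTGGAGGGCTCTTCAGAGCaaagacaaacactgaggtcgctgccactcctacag
SFTPD: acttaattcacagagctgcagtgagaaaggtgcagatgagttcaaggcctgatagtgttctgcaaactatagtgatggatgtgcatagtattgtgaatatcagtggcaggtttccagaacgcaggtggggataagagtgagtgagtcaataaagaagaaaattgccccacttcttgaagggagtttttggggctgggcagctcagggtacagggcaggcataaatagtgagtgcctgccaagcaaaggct
ABCA3: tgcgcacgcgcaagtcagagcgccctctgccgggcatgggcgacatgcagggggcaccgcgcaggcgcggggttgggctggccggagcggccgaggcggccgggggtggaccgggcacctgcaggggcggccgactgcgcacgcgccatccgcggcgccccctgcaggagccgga
SFTPA2: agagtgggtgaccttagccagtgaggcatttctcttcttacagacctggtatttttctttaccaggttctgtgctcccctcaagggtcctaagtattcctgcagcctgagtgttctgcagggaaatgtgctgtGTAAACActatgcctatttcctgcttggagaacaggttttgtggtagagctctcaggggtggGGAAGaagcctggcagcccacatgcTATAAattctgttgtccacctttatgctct

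In the 250 bases before its downstream start site, SFTPB held 4 matches to GCNCTNNAG, of which 3 overlapped one another between 106 and 88 bases upstream and are the long run of capitals. The fourth, 58 to 50 bases upstream, and a TATAA 31 to 27 bases upstream reached into an exon of the other start and are not printed. Its second start site had 1 match to GCNCTNNAG in the same length. At least 1 match to GCNCTNNAG was present in 14.3% of 35116 RefSeq promoter windows of that length, TGTTTAC in 2.98%, GGAAG in 65.1% and TATAA in 18.9%. The SFTPD and ABCA3 windows held none of the 4 motifs. The printed SFTPA2 window, 1 of 2, held 1 match each to the forkhead motif, the ETS core and the TATA box, the last at 30 to 26 bases upstream. The window of its other start site held 3 matches to the ETS core and none to the other motifs. A match is a string of letters and not a bound site, and a gene-level TPM does not show from which promoter or gene copy a transcript came.

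The comparison of LB DMSO with A549 DMSO shows how the lines differ without drug. The surfactant protein genes SFTPB, SFTPC and SFTPD, and the lamellar body transporter ABCA3 were far higher in LB cells. SFTPA1, SFTPA2, LAMP3 and NKX2-1 stayed near 0 in both lines, and NAPSA and ETV5 did not pass the test. Of the 6 genes tested, 4 rose and 0 fell, where 14.2% of all tested genes rose, 18.2% fell and 32.4% changed in either direction. Since 3 of the 4 entered the test only through their LB libraries, this count is a description and not evidence about the set. For the same reason the adjusted p-values given below for SFTPB, SFTPC and SFTPD add no support to the levels themselves. In bulk libraries, fewer cells with a transcript and less of it in each cell cannot be told apart.

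SFTPB, whose product packs phospholipid into lamellar body membranes, lies at chr2:85657314-85668741 on the minus strand (positions from GENCODE 29 on GRCh38). It was listed at 0 in all 3 A549 libraries and at 245, 264 and 232 TPM in the LB DMSO libraries (246.9 ± 15.9, SD, n = 3). The groups did not overlap, and SFTPB rose (adjusted p = 2.80e-15, limma). No fold can be given against a group listed at 0.

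SFTPC encodes a very hydrophobic peptide found almost only in type II cells, at chr8:22156913-22164479 (plus strand). A549 libraries held 0.32, 0.80 and 0.26 TPM of SFTPC, and LB DMSO libraries 583, 659 and 527 TPM. On the log2(TPM + 1) scale SFTPC rose by 8.67 (SE 0.135, 95% interval 8.38 to 8.97, adjusted p = 2.92e-13), and the ratio of the mean TPM levels was 1282. LGI3, which overlaps the start of SFTPC on the other strand, was at 0.13 to 1.67 TPM in the 12 libraries. SFTPD, the collectin at chr10:79937740-79982614 (minus strand), went from 0.12, 0.38 and 0.24 TPM to 290, 321 and 289 TPM. It rose by 7.92 (SE 0.0920, adjusted p = 2.55e-14), with a ratio of mean levels of 1216. With A549 levels near 0, these sizes depend on the pseudocount. SFTPC rose by 10.16 with a pseudocount of 0.1 and by 6.76 with 5, and SFTPD by 9.83 and 5.86.

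ABCA3 differed from these in that A549 cells already expressed it. Its level at chr16:2275881-2340746 (minus strand) was 18.0, 18.9 and 19.7 TPM in A549 and 350, 280 and 312 TPM in LB DMSO. The groups did not overlap, and ABCA3 rose by 3.98 (SE 0.0728, 95% interval 3.82 to 4.14, adjusted p = 1.47e-12), with a ratio of mean levels of 16.6. In the order of mean TPM among 24749 genes above 0 in LB DMSO, SFTPC was at place 222, ABCA3 at 412, SFTPD at 438 and SFTPB at 546. The ABCA3 libraries of LB DMSO (280 to 350 TPM) overlapped those of SFTPD (289 to 321 TPM), so these neighbours in the order cannot be separated.

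The other collectins of surfactant were close to absent. SFTPA1 was listed at 0 in 11 of 12 libraries and at 0.03 TPM in 1 amiodarone library. SFTPA2 was listed at 0 in 10 libraries and at 0.03 TPM in 2 LB DMSO libraries. The pair lies on chromosome 10 near SFTPD, and 9.20% of the 100-base windows in SFTPA1 transcripts also occur in SFTPA2 (8.46% the other way), so reads from them are partly exchangeable. SFTPB, SFTPC, SFTPD and ABCA3 shared 0% of their windows with any other gene.

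NKX2-1, at chr14:36516392-36521149 (minus strand), was listed at 0.05, 0 and 0 TPM in A549 and at 0.07, 0.11 and 0.03 TPM in LB DMSO. Without the filter on low values its log2 difference was 0.07 (adjusted p = 0.339), and the groups overlapped. SFTA3, the gene next to it, was listed at 0 in all 12 libraries. LAMP3, a membrane glycoprotein of lamellar bodies at chr3:183122213-183163839 (minus strand), was at 0.40, 0.29 and 0.35 TPM in A549 and at 0.37, 0.32 and 0.26 TPM in LB DMSO. These levels overlapped (adjusted p = 0.907 without the filter), and their log2 difference had a 95% interval from −0.22 to 0.16.

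NAPSA encodes an aspartic protease that trims the SFTPB precursor, at chr19:50358477-50365830 (minus strand). It was at 3.44, 2.30 and 1.75 TPM in A549 and at 3.88, 2.95 and 2.06 TPM in LB DMSO. The libraries overlapped and the log2 difference was 0.18 (95% interval −0.29 to 0.66, adjusted p = 0.562). NAPSA lies within NR1H2, which is transcribed from the other strand at 65.3 to 90.1 TPM. The kit marks strand, but the labels do not say whether the counting used it.

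ETV5, at chr3:186046308-186110318 (minus strand), was at 22.8, 23.1 and 25.1 TPM in A549 and at 25.9, 24.3 and 24.5 TPM in LB DMSO. These overlapped as well, with a log2 difference of 0.07 (95% interval −0.12 to 0.26, adjusted p = 0.570). ETV5 overlaps DGKG on the same strand, and 1.11% of its 100-base windows are shared with it. The 10 genes together summed to 45.2 to 47.4 TPM in A549 libraries and to 1388 to 1551 TPM in LB DMSO libraries.

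**Figure D1:**
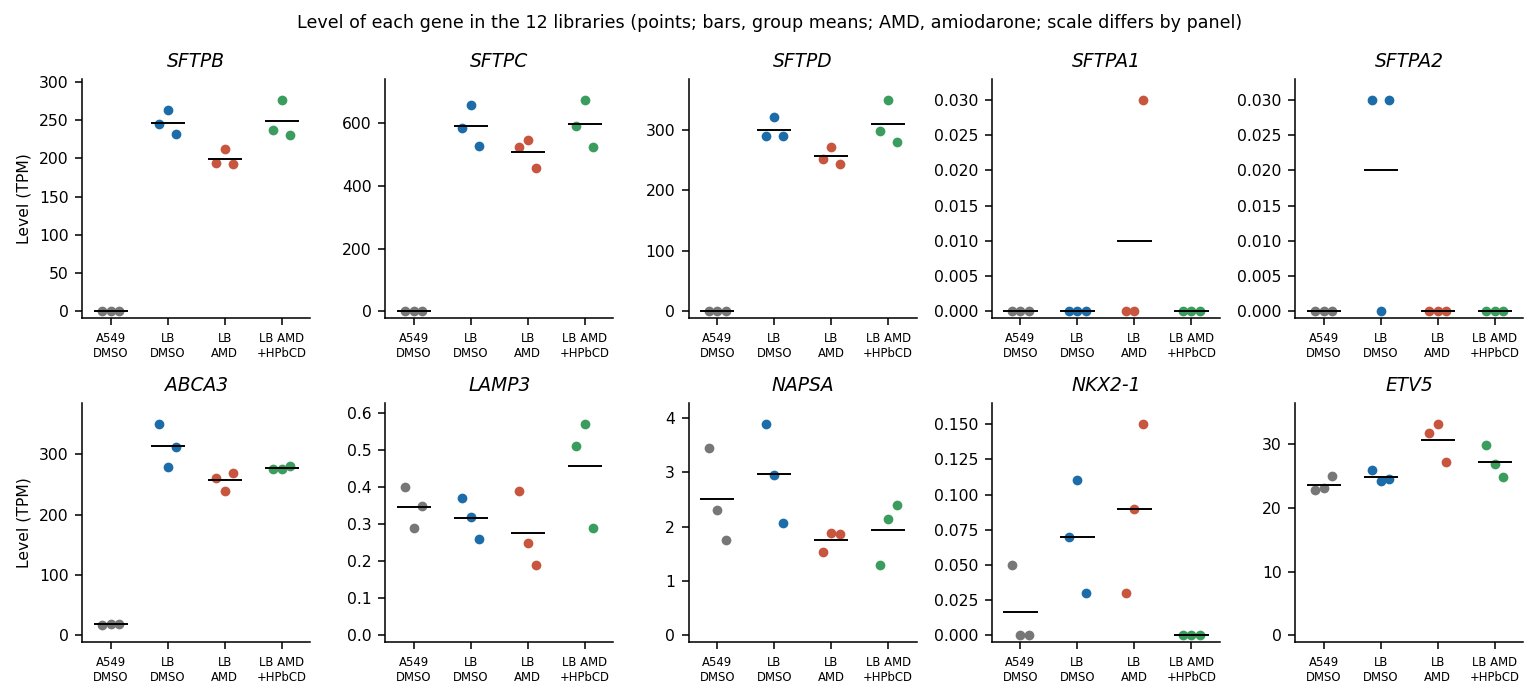
Levels of the 10 genes in TPM (y axis, a separate linear scale from 0 in each panel) in the 12 libraries of the 4 groups (x axis). Points are libraries and bars are group means. SFTPB, SFTPC, SFTPD and ABCA3 are high in all 9 LB libraries, while SFTPA1, SFTPA2, LAMP3 and NKX2-1 stay under 1 TPM in all 12.

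The genes beside the risers moved far less, and in both directions. The 3 nearest protein-coding genes on each side were taken at the loci of SFTPB, SFTPC, SFTPD and ABCA3, leaving out genes of the set, and 16 of them could be tested. Of these 3 rose and 8 fell, against the shares of 14.2% and 18.2% over all tested genes, and their log2 differences ran from −2.21 to 0.74 with a median of −0.24 (median of all tested genes −0.04). HR, a transcriptional corepressor gene on the low-coordinate side of SFTPC, was the lowest of them. It fell from 18.6 ± 0.792 to 3.26 ± 0.461 TPM (SD, n = 3, log2 difference −2.21, adjusted p = 9.16e-08). BMP1, which starts 257 bases after the end of SFTPC, fell from 36.3 ± 2.01 to 26.2 ± 2.86 TPM (adjusted p = 0.00278). REEP4, between HR and SFTPC, fell by 0.42 on the log2 scale (adjusted p = 4.71e-05).

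The risers among these neighbours were ATOH8, ST3GAL5 and TMEM150A, all at the SFTPB locus. ATOH8 went from 1.46 ± 0.295 to 3.11 ± 0.220 TPM (adjusted p = 0.00196) and ST3GAL5, a ganglioside synthase, from 43.1 ± 5.62 to 66.7 ± 0.505 TPM (adjusted p = 3.64e-05). TMEM150A rose by 0.52 (adjusted p = 0.0267). Its call depended on single libraries, as it was lost in 4 of the 12 leave-one-out fits. GNLY, the gene nearest to SFTPB on its high-coordinate side and a saposin-fold protein as SFTPB is, was listed at 0 in both groups. Over all 10 loci, 37 of 50 neighbours were tested, of which 8 rose and 10 fell, against 14.2% and 18.2% of all tested genes.

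**Figure D2:**
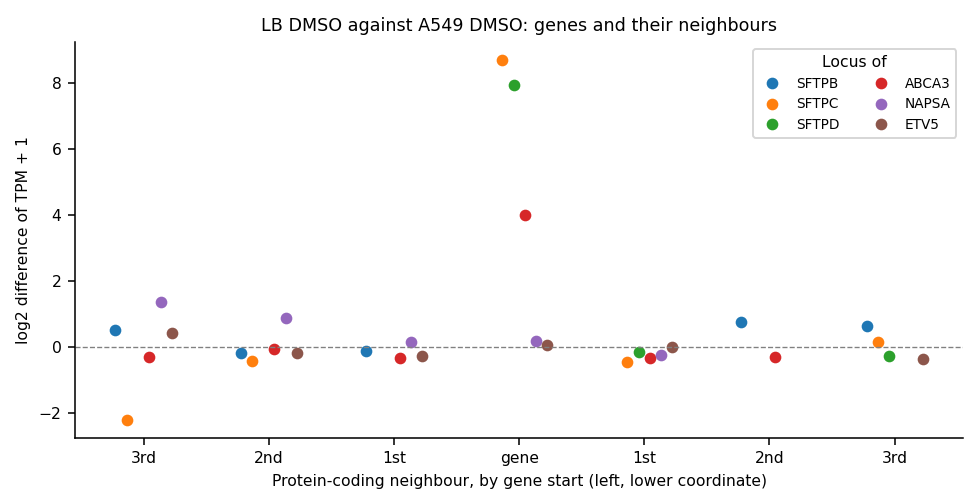
Log2 differences of TPM + 1 between LB DMSO and A549 DMSO (y axis) for 5 of the genes and for the tested protein-coding neighbours of 6, by order of gene start (x axis). Each point is 1 gene, coloured by locus. The point of SFTPB itself is left out because it was listed at 0 in A549. SFTPC, SFTPD and ABCA3 stand between 3.98 and 8.67, and no neighbour shown is above 1.37 (MYH14, beside NAPSA).

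Other genes that mark type II cells did not rise as a group. Of 16 such genes, 12 were under 1 TPM in all 3 LB DMSO libraries, SFTA2 and SFTA3 at 0 among them, and only 3 could be tested. AQP3, a water and glycerol channel, rose from 20.2 ± 7.29 to 63.7 ± 7.94 TPM (log2 difference 1.65, adjusted p = 0.000105). DRAM1 fell by 0.50 (adjusted p = 0.00131), and MUC1 was the one that did not pass. SLC34A2, the phosphate transporter of type II cells, was at 0 in A549 and at 0.06 to 0.18 TPM in LB DMSO.

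Of a list of transcription factors drawn up around the type II program, 21 of 21 were tested, and 13 fell against 1 that rose (median log2 difference −0.38, all tested genes −0.04). Over all tested genes 18.2% fell and 14.2% rose. The list is broader than type II cells, as it holds SOX2 and SOX9, so these are not counts of type II factors alone. EHF, an epithelial ETS factor, fell from 10.2 ± 0.486 to 1.48 ± 0.140 TPM (log2 difference −2.17, adjusted p = 1.29e-06). SOX2 fell by 1.14 (adjusted p = 6.61e-05), GATA6 by 1.08 (adjusted p = 0.000183) and KLF5 by 1.04 (adjusted p = 6.67e-06). The riser was FOXA1, a forkhead factor named here after its value was seen, from 11.4 ± 3.06 to 15.2 ± 0.879 TPM with overlapping libraries (adjusted p = 0.0319). It no longer passed without A549 DMSO replicate 1 or 2 or without LB DMSO replicate 2 or 3, when 0 of the list rose.

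ETV5 sits in a relay from FGF receptors through ERK, and genes of that relay moved both ways while ETV5 itself did not pass. Of 19 tested genes, 8 rose and 4 fell (median 0.25), where 14.2% of all tested genes rose and 18.2% fell. SPRY4, a feedback inhibitor of the relay, rose from 4.40 ± 0.605 to 13.2 ± 1.37 TPM (log2 difference 1.40, adjusted p = 4.28e-07), and EGR1, an early-response factor, rose by 1.15 (adjusted p = 0.000106). The receptors FGFR4 and FGFR1 fell, FGFR4 from 42.4 ± 7.13 to 16.9 ± 0.172 TPM (adjusted p = 1.45e-06) and FGFR1 by 0.96 (adjusted p = 1.04e-05).

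Genes that serve surfactant in other ways were divided, and their counts are to be read against the 14.2% of all tested genes that rose and the 18.2% that fell. Among 12 tested genes of protein processing and turnover, 3 rose and 3 fell (median −0.01). HSPA5, the chaperone of the endoplasmic reticulum, rose by 0.33 (adjusted p = 0.000272), while NEDD4L and NEDD4, ubiquitin ligases that act on proSFTPC, fell by 0.66 (adjusted p = 1.56e-05) and by 0.41 (adjusted p = 0.0142). NEDD4 no longer passed without LB DMSO replicate 2 (adjusted p = 0.0611). CSF2RA, a chain of the GM-CSF receptor, fell by 0.78 (adjusted p = 0.00113).

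In phospholipid synthesis and transfer, 3 of 14 tested genes rose and 0 fell (median −0.04), and 1 fell without LB DMSO replicate 2. CHPT1, which makes phosphatidylcholine, rose by 0.42 (adjusted p = 0.000504) and PRDX6, a surfactant phospholipase and peroxidase, by 0.40 (adjusted p = 2.36e-05). FABP5 rose by 0.23 (adjusted p = 0.0448), a call lost in 7 of 12 leave-one-out fits, with an adjusted p of up to 0.148 without A549 DMSO replicate 3.

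Of 26 tested genes of lamellar body biogenesis and exocytosis, 6 rose and 5 fell (median 0.01), where 14.2% of all tested genes rose and 18.2% fell. ABCA1, a cholesterol exporter of the same family as ABCA3, rose from 2.14 ± 0.199 to 6.23 ± 0.554 TPM (adjusted p = 8.51e-05). VAMP8, a fusion protein of secretory vesicles, fell from 9.16 ± 1.15 to 1.65 ± 0.374 TPM (log2 difference −1.94, adjusted p = 7.33e-06). P2RY2, the ATP receptor that triggers surfactant secretion, fell by 0.86 (adjusted p = 0.00233) and LRRK2 by 0.79 (adjusted p = 0.00103). PSAP, whose product shares the saposin fold with SFTPB, rose from 563 ± 54.0 to 946 ± 55.8 TPM (adjusted p = 1.0e-05).

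Markers of other cell types were checked in the same libraries. The 8 endothelial markers summed to at most 0.89 TPM in any library, and the 8 fibroblast markers to between 9.22 and 20.7 TPM, with DCN at 0 in A549, LB DMSO and amiodarone libraries. Of 3 fibroblast markers tested between the lines, COL1A1 rose from 4.13 ± 0.821 to 8.38 ± 0.241 TPM and LUM from 0.270 ± 0.151 to 2.44 ± 0.506 TPM, and THY1 fell from 9.19 ± 1.07 to 5.26 ± 1.34 TPM (adjusted p = 0.0132), a call lost without LB DMSO replicate 3. Their part in the results was not tested. The 8 leukocyte and macrophage markers summed to 17.2 to 20.3 TPM in A549 and 30.3 to 31.3 TPM in LB DMSO, most of it CD68, with CD3E and MARCO at 0. Of type I cell markers, 5 of 6 tested fell, and CLIC5, HOPX and PDPN were at 0 in both groups and AQP5 in LB DMSO. Airway secretory markers SCGB3A1 and SCGB3A2 were at 0 in both groups, and 2 of 3 tested airway genes fell. Over all tested genes 18.2% fell and 14.2% rose between the lines. Only 6 of 12 type I and 3 of 12 airway markers could be tested.

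**Figure D3:**
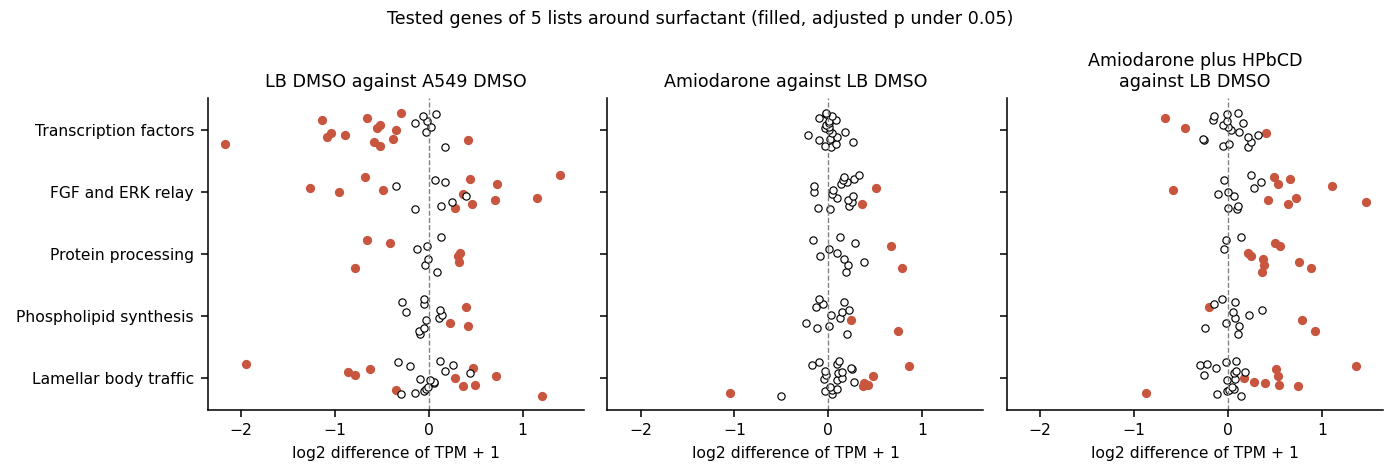
Log2 differences of TPM + 1 (x axis) of the tested genes in 5 lists around surfactant (y axis), in 3 comparisons. Each point is 1 gene, filled where the adjusted p was under 0.05. In LB DMSO against A549 DMSO 13 of the 21 transcription factors fell and 1 rose, where 18.2% of all tested genes fell and 14.2% rose. None of the 21 passed under amiodarone, where the largest rise in the 5 lists is STX3 at 0.86.

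Amiodarone was next compared with vehicle in LB cells. The mean of SFTPB fell by 19.1% and that of ABCA3 by 18.2%, and SFTPC and SFTPD had lower means that did not pass. ETV5 and NAPSA did not pass either. Of the 6 genes tested, 2 fell and 0 rose, where 3.72% of all tested genes fell, 4.90% rose and 8.62% changed in either direction. Of the 6, 5 had an unadjusted p under 0.05, but the share of all tested genes at that threshold was not taken, so this count has no yardstick.

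SFTPB was at 245, 264 and 232 TPM with vehicle and at 194, 212 and 193 TPM with amiodarone. The highest treated library lay under the lowest vehicle library. SFTPB fell on the test's scale (log2 difference −0.30, SE 0.0725, 95% interval −0.46 to −0.15, adjusted p = 0.0237). This SE pools the spread of all 4 groups, and A549, with SFTPB listed at 0, added none to it. Over all alternatives the adjusted p ran from 0.00930 to 0.0932. The call was lost without LB DMSO replicate 1 (0.0685) or 2 (0.0932), and without amiodarone replicate 1 (0.0773) or 3 (0.0856).

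ABCA3 was at 350, 280 and 312 TPM with vehicle and at 261, 240 and 269 TPM with amiodarone, again without overlap. ABCA3 fell too (log2 difference −0.29, SE 0.0728, 95% interval −0.44 to −0.13, adjusted p = 0.0321). The call ended without LB DMSO replicate 1 (log2 difference −0.20, adjusted p = 0.110) or 3 (0.0898), and without amiodarone replicate 1 (0.0649) or 2 (0.115). The LB DMSO library with the highest ABCA3 was thus 1 of 4 on which the call rested.

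The neighbours of these genes were tested with amiodarone as well. Of the 16 tested at the loci of SFTPB, SFTPC, SFTPD and ABCA3, 4 fell and 0 rose, against 3.72% and 4.90% of all tested genes. Beside ABCA3, CCNF, a cyclin, fell by 0.41 (adjusted p = 0.00312), TEDC2 by 0.42 (adjusted p = 0.0252) and RNPS1, a splicing activator, by 0.18 (adjusted p = 0.0413), and beside SFTPC, REEP4 fell by 0.25 (adjusted p = 0.0106). TEDC2 no longer passed without any 1 LB DMSO library or amiodarone replicate 1 (0.0640 to 0.0840), nor RNPS1 without LB DMSO replicate 1 or 3, amiodarone replicate 2 or 3, or amiodarone plus HPbCD replicate 1 or 2 (0.0523 to 0.137). With HPbCD added to amiodarone, 0 of the 16 rose and 1, HR, fell (adjusted p = 0.0336), against 2.71% and 1.36% of all tested genes. The HR call was lost without any 1 amiodarone plus HPbCD library or amiodarone replicate 2 or 3 (0.0635 to 0.129). With both agents against LB DMSO, 6 of the 16 fell and 0 rose, against 7.81% and 10.1% of all tested genes. Among these 6, the ANXA11 call was lost in 4 of the 12 leave-one-out fits.

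SFTPC, at 583, 659 and 527 TPM with vehicle and 523, 547 and 458 TPM with amiodarone, overlapped between the groups. Its log2 difference was −0.21 (95% interval −0.50 to 0.09, adjusted p = 0.394). SFTPD did not overlap, with 290, 321 and 289 TPM against 252, 272 and 243 TPM, and its log2 difference of −0.23 had a 95% interval of −0.43 to −0.03 and an adjusted p of 0.156. The intervals of SFTPC and SFTPD hold the sizes found for SFTPB and ABCA3, so a difference among the 4 genes was not shown.

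NAPSA was at 1.53, 1.88 and 1.86 TPM with amiodarone, below all 3 vehicle libraries (2.06 to 3.88 TPM). At this low level the interval of its log2 difference was wide (−0.98 to −0.03, adjusted p = 0.192). ETV5 was the one tested gene of the set with a higher mean, at 31.8, 33.2 and 27.2 TPM against 24.3 to 25.9 TPM. These did not overlap, and the log2 difference of 0.29 (95% interval 0.10 to 0.47) narrowly missed the threshold (adjusted p = 0.0572). It passed without amiodarone replicate 3 (adjusted p = 0.0265), the lowest of the treated libraries. NKX2-1 (0.03 to 0.15 TPM), LAMP3 (0.19 to 0.39 TPM) and the SFTPA genes (0 to 0.03 TPM) were near 0.

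Most genes of the lists around the pathway did not pass, against shares of 4.90% up and 3.72% down over all tested genes. In protein processing, 2 of 12 tested genes rose and 0 fell (median 0.17, all tested genes −0.003), or 4 without A549 DMSO replicate 2. ITM2B, a transmembrane protein with a BRICHOS domain as in proSFTPC, rose from 152 ± 9.11 to 242 ± 19.1 TPM (adjusted p = 0.000511), and CSF2RA rose by 0.78 (adjusted p = 0.00549). In phospholipid synthesis 2 of 14 rose and 0 fell (median 0.07), or 1 fell without LB DMSO replicate 2. CHKA, the choline kinase at the start of phosphatidylcholine synthesis, rose from 21.5 ± 0.512 to 36.6 ± 2.19 TPM (adjusted p = 3.07e-05). LPCAT1, which remodels phosphatidylcholine to the disaturated form of surfactant, rose from 55.8 ± 2.40 to 66.2 ± 3.39 TPM (adjusted p = 0.0261). LPCAT1 no longer passed without amiodarone replicate 2 (0.0544) or 3 (0.0949), or LB DMSO replicate 2 (0.0923) or 3 (0.0795).

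Of 26 lamellar body traffic genes, 5 rose and 1 fell (median 0.09), or 2 fell without amiodarone plus HPbCD replicate 3. STX3, a membrane fusion protein, rose from 12.7 ± 0.893 to 23.8 ± 1.60 TPM (adjusted p = 1.65e-05), and LAMP2, a lysosomal membrane protein, from 107 ± 1.19 to 149 ± 3.34 TPM (adjusted p = 1.10e-05). ABCG1, a sterol exporter of type II cells and macrophages, fell from 3.34 ± 0.746 to 1.09 ± 0.303 TPM (adjusted p = 0.00561). No transcription factor of the type II list passed in either direction (0 of 21, limma; 1 with an unadjusted p under 0.05), and 1 rose without A549 DMSO replicate 2 or with only the groups compared. In the FGF and ERK list, FGFR4 rose by 0.51 (adjusted p = 0.00877) and DUSP4, an ERK phosphatase, by 0.35 (adjusted p = 0.000127), with 2 of 19 up and 0 down (median 0.17). The leukocyte marker sum was 34.2 to 41.5 TPM, above the LB DMSO range, with PTPRC, CD3E and MARCO at 0.

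**Figure D4:**
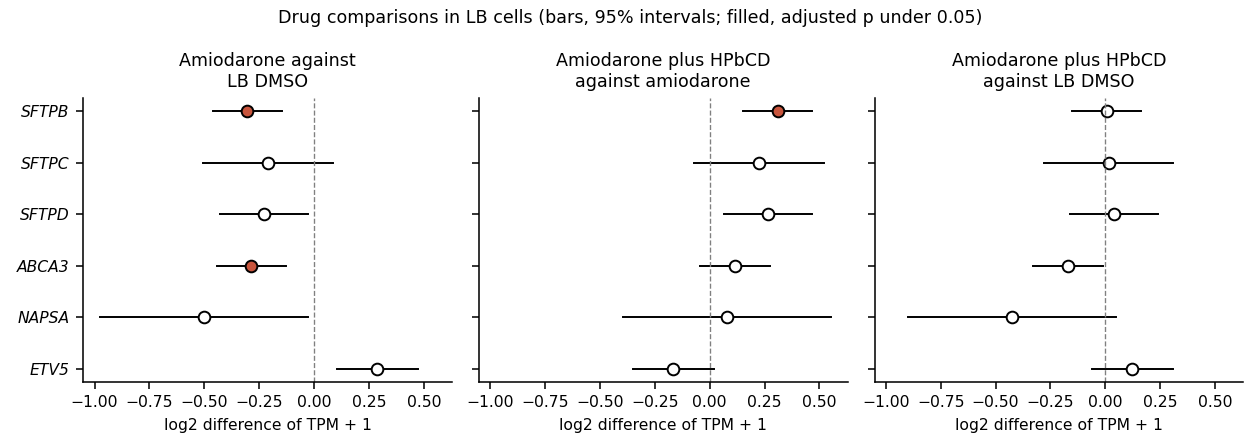
Log2 differences of TPM + 1 (x axis) of the 6 tested genes (y axis) in 3 comparisons among LB cells. Points are estimates over 3 libraries a group, bars are 95% intervals, and filled points had an adjusted p under 0.05. SFTPB is at −0.30 with amiodarone, at 0.31 when HPbCD is added and at 0.01 against LB DMSO.

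With HPbCD added to amiodarone, SFTPB was higher than with amiodarone alone, and the other 5 tested genes did not pass. The count was 1 up and 0 down of 6, where 2.71% of all tested genes rose, 1.36% fell and 4.07% changed in either direction. SFTPB was at 238, 277 and 231 TPM with both agents against 193 to 212 TPM with amiodarone, without overlap. Its mean was 24.4% higher (log2 difference 0.31, 95% interval 0.15 to 0.47, adjusted p = 0.0336). The SE of 0.0725 pools the spread of all 4 groups, to which A549, with SFTPB listed at 0, added none. It was 0.0920 for SFTPD and 0.135 for SFTPC. The 95% intervals of both hold 0.31, so a difference among these genes was not shown. The SFTPB call ended with only the groups compared. It also ended without amiodarone replicate 1 (0.112) or 3 (0.122), without amiodarone plus HPbCD replicate 1 (0.0701) or 2 (0.107), and without LB DMSO replicate 1 (0.0531).

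SFTPD did not overlap either, at 298, 349 and 280 TPM against 243 to 272 TPM (log2 difference 0.27, 95% interval 0.07 to 0.47, adjusted p = 0.144). SFTPC, at 592, 674 and 524 TPM, overlapped with the amiodarone libraries (log2 difference 0.22, 95% interval −0.07 to 0.52, adjusted p = 0.424). ABCA3, at 275, 277 and 281 TPM, was above all 3 amiodarone libraries, but the log2 difference of 0.11 did not pass (95% interval −0.04 to 0.27, adjusted p = 0.455). ETV5 was at 29.9, 27.0 and 24.9 TPM and overlapped with amiodarone alone (adjusted p = 0.339), as did NAPSA at 1.3, 2.13 and 2.40 TPM (adjusted p = 0.900).

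NKX2-1 was listed at 0 in all 3 libraries with both agents and at 0.03, 0.09 and 0.15 TPM with amiodarone. Without the filter on low values this difference had an unadjusted p of 0.0159 and an adjusted p of 0.271, at a level a few hundredths of 1 TPM above 0.

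Among surrounding genes LPCAT1 rose again, from 66.2 ± 3.39 to 97.3 ± 3.19 TPM (adjusted p = 0.000239), the 1 of 14 phospholipid genes to pass (median −0.01, all tested genes −0.01). This count and those that follow stand against shares of 2.71% up and 1.36% down over all tested genes. EMC3, a membrane protein insertase subunit needed for SFTPB and SFTPC processing, rose from 132 ± 6.02 to 167 ± 8.48 TPM (adjusted p = 0.00887), the 1 of 12 processing genes to pass. Of lamellar body traffic genes 3 of 26 rose and 0 fell (1 without A549 DMSO replicate 2), with CD63, a tetraspanin of lamellar body membranes, from 806 ± 24.1 to 1042 ± 20.5 TPM (adjusted p = 0.000532) and STX3 by 0.51 (adjusted p = 0.00230). The call of the third, ABCA1 (0.64, adjusted p = 0.0404), was lost in 9 of 12 leave-one-out fits, up to 0.162 without amiodarone plus HPbCD replicate 1.

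In the FGF and ERK list 4 of 19 rose and 0 fell (median 0.15), where 2.71% of all tested genes rose and 1.36% fell. Over the leave-one-out fits 3 to 6 rose and 0 to 2 fell, the falls without A549 DMSO replicate 2 or 3. DUSP5, a nuclear ERK phosphatase, rose from 27.1 ± 2.06 to 64.4 ± 6.60 TPM (log2 difference 1.22, adjusted p = 3.05e-05). Of 21 transcription factors 1 rose and 1 fell. SOX9, a factor of distal lung progenitors, fell by 0.57 (adjusted p = 0.00451), with 2 of the list down without A549 DMSO replicate 2. The riser, HMGA2 (0.55, adjusted p = 0.0232), no longer passed without any 1 of the 6 libraries compared (0.0518 to 0.0905). CD68 rose to 83.3 ± 2.23 TPM from 35.8 ± 2.96 TPM (adjusted p = 2.95e-05), which set the leukocyte marker sum at 83.7 to 87.6 TPM with PTPRC, CD3E and MARCO still at 0.

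Against vehicle, LB cells with both agents showed no tested gene of the set past the threshold (0 of 6, limma, where 17.9% of all tested genes changed, 10.1% up and 7.81% down). Without adjustment, 1 of the 6 had a p under 0.05, again with no share of all tested genes taken at that threshold. The libraries of all 6 genes overlapped with LB DMSO, and the share of all tested genes that overlapped was not taken. SFTPB had a log2 difference of 0.01 (95% interval −0.15 to 0.17, adjusted p = 0.966), SFTPC of 0.02 (−0.28 to 0.31, adjusted p = 0.955) and SFTPD of 0.04 (−0.16 to 0.24, adjusted p = 0.816). ABCA3 had a log2 difference of −0.17 (95% interval −0.33 to −0.01, adjusted p = 0.128), and it passed only without LB DMSO replicate 2 (−0.25, adjusted p = 0.0291) or after quantile normalization (−0.23, adjusted p = 0.0365).

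The lists around the pathway are read against the same shares, 10.1% up and 7.81% down. Of 12 tested processing genes 9 rose and 0 fell (median 0.37, all tested genes −0.02). DNAJB9, a cochaperone of the endoplasmic reticulum, rose from 12.2 ± 1.94 to 21.0 ± 0.816 TPM (adjusted p = 0.000789) and NEDD4 from 21.1 ± 1.37 to 30.3 ± 1.17 TPM (adjusted p = 0.00848). Of 26 traffic genes 8 rose and 1 fell (median 0.07), with 5 up without amiodarone plus HPbCD replicate 2. STX3 rose by 1.37 (adjusted p = 1.49e-07) and CD63 by 0.74 (adjusted p = 2.54e-07), and ABCG1 fell by 0.87 (adjusted p = 0.00788).

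In phospholipid synthesis 2 of 14 rose, CHKA by 0.93 (adjusted p = 2.06e-06) and LPCAT1 by 0.79 (adjusted p = 2.11e-06), and PRDX6 fell by 0.21 (adjusted p = 0.00638). In the FGF and ERK list 8 of 19 rose and 1 fell (median 0.27). DUSP5 rose by 1.47 (adjusted p = 9.31e-07) and EGR1 by 0.72 (adjusted p = 0.00616). FOSL1 went from 24.5 ± 3.80 to 53.4 ± 1.85 TPM (adjusted p = 0.0447), a call lost in 9 of 12 leave-one-out fits, up to 0.136 without LB DMSO replicate 1. The gene that fell was FGFR3 (−0.58, adjusted p = 0.0270, named after its value was seen), and 0 fell without LB DMSO replicate 2 or 3 or amiodarone plus HPbCD replicate 1 or 2. Of 21 transcription factors KLF5 rose by 0.41 (adjusted p = 0.0132), and SOX9 and NFIA fell, SOX9 by 0.67 (adjusted p = 0.000372). KLF5 no longer passed without LB DMSO replicate 2 (0.0566) or 3 (0.0579) or amiodarone plus HPbCD replicate 2 (0.0556), and the number of factors that fell ran from 1 to 3 over the leave-one-out fits. The 3 drug comparisons share libraries, so their values stand side by side and are not independent of one another.

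Within the 9 LB libraries the ratios among the 3 surfactant protein genes varied less than their levels, and ABCA3 followed these genes less closely. Ratios of other gene pairs were not taken as a yardstick. TPM is per length, so ratios between genes can be read. The ratio of SFTPB to SFTPD was 0.769 to 0.847 (coefficient of variation 3.02%), although the level of SFTPB varied by 12.3% and that of SFTPD by 11.3%. By group this ratio was 0.802 to 0.847 with vehicle, 0.769 to 0.793 with amiodarone and 0.792 to 0.826 with both agents. The vehicle and amiodarone ranges did not overlap, a difference that was not tested. SFTPC over SFTPD was 1.82 to 2.07 (4.46%) and SFTPC over SFTPB 2.27 to 2.69 (5.71%). SFTPC made up 50.3 to 53.9% of the summed SFTPB, SFTPC and SFTPD. ABCA3 over SFTPB was 1.0 to 1.43 (12.5%), a spread as wide as that of either gene's level.

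**Figure D5:**
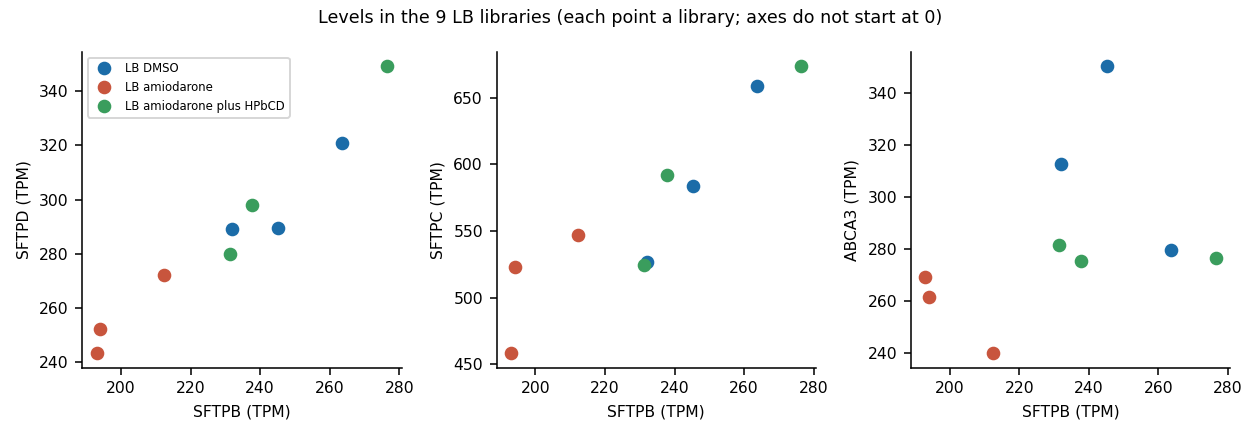
Levels of SFTPD, SFTPC and ABCA3 (y axes, TPM) against that of SFTPB (x axis, TPM) in the 9 LB libraries, coloured by group; the axes do not start at 0. SFTPB over SFTPD stays between 0.769 and 0.847, while ABCA3 over SFTPB runs from 1.0 to 1.43.

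For each tested gene of the set, the 5 tested genes with the most similar profile were taken by Pearson's r of log2(TPM + 1), as a description of libraries that share a line and a treatment. Over the 12 libraries, SFTPB was most like SFTPD (r = 0.9998), SFTPC, DNER, HGF and ABCA3 (r = 0.997). DNER, a Notch-pathway ligand, ranged from 0.44 to 68.1 TPM and HGF, hepatocyte growth factor, from 0.03 to 22.1 TPM, and the 12-library r mainly reflects the step between the lines. Within the 9 LB libraries SFTPD remained the gene most like SFTPB (r = 0.974), before B3GAT3 (0.953), ACTN4 (0.952), ALKBH1 (0.934) and SMAD3 (0.931).

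For SFTPC the most similar genes within LB were GMPPA (0.967), LIMK1 (0.960) and PLAU (0.952), and for SFTPD they were SFTPB, B3GAT3 (0.963) and CLPTM1 (0.953). ABCA3 was most like SBF1 (0.948) and SPEN (0.939). Neither ABCA3 nor SFTPC had a surfactant protein gene among its 5 within LB, but the 2 differed. SFTPC had an r of 0.930 with SFTPD and 0.895 with SFTPB, little under that of the last of its 5, THSD1 (0.941). ABCA3 had an r of 0.403 with SFTPB, 0.241 with SFTPD and 0.141 with SFTPC. ETV5 was most like POLR1D over the 12 libraries (0.941) and C11orf54 (0.952) within LB.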

How the data were processed

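Total RNA of 12 cell line libraries (4 groups of 3, grouped by the labels' cell line and treatment) was sequenced from stranded mRNA libraries as paired reads of 100 bases, per the labels' protocols. The deposited values are TPM values made by the authors with STAR 2.7.3a and RSEM 1.3.1 on GRCh38, per the submitters' processing notes. Which annotation was used is not given in the sources. Of 57189 rows, 37 held no value. TPM keeps no depth, so depth and counting error are unknown and no count model was used. When some genes rise strongly, the TPM of the others falls.

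Values were taken as log2(TPM + 1), a pseudocount of 1 that understates changes of low genes. The 13968 genes averaging 1 TPM or more were fitted with limma 3.58.1 (R 4.3.3) in 1 linear model of 4 groups (8 residual degrees of freedom, mean-variance trend, median residual SD 0.128). The p-values are two-sided, adjusted by Benjamini-Hochberg within each of 4 comparisons, with a threshold of 0.05. The procedure was tested on simulated data. Gene lists came from textbook knowledge. The genes and the lists were chosen with earlier results of these data known. Named were all 10 genes, up to 4 genes per list and comparison with the largest changes past the test, the 3 protein-coding neighbours on each side (GENCODE 29) and the 5 genes most similar by r. DNER and HGF come under the last. MUC1, FOXA1, FGFR3, SLC34A2 and the markers listed at 0 were named after their values were seen. Promoter windows of 7 of the 10 genes, 250 bases each, came from RefSeq (GRCh38.p14). Alternatives were pseudocounts of 0.1 and 5, a filter of 5 TPM or none, other scalings, limma settings, a replicate block and leaving out each library. Same-numbered libraries had deviations with r from −0.06 to 0.21, so the numbers were not taken to pair them.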

Additional observations from a re-analysis of the deposited data

How the results depend on the processing

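Every alternative kept the 4 risers of LB DMSO against A549 DMSO. With amiodarone, 2 genes of the set passed, but 0 without a filter on low values, 1 without limma's trend, 1 with only the groups compared, and 0 to 2 without 1 library. With HPbCD added the count of 1 became 0 without a filter, with quantile normalization, with mitochondrially encoded genes removed, without the trend and with only the groups compared, and 0 to 1 without 1 library. For both agents against vehicle the count of 0 became 1 with quantile normalization and ran from 0 to 1 without 1 library. Over all tested genes, counts without 1 library ran from 630 to 1493 with amiodarone (1204 with all) and from 282 to 827 with HPbCD added (568 with all). The leave-one-out fits have fewer libraries by construction, and the cause of the other shifts was not tested. In the amiodarone comparison 68.1% of 630 calls were up without LB DMSO replicate 3 and 67.5% of 682 without amiodarone replicate 2, against 56.8% with all libraries.

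Near-0 differences of both agents against vehicle changed sign. With quantile normalization SFTPB was −0.047, SFTPC −0.089 and SFTPD −0.030, and with mitochondrially encoded genes removed SFTPB was −0.017 and SFTPC −0.008. Without LB DMSO replicate 3 SFTPB was −0.037 and SFTPC −0.063. The lowest values, SFTPB −0.072, SFTPC −0.075 and SFTPD −0.052, came without amiodarone plus HPbCD replicate 2, and the highest, 0.056, 0.105 and 0.106, without replicate 3 of that group. NAPSA for HPbCD added to amiodarone ran from −0.037 without amiodarone plus HPbCD replicate 3 to 0.245 without replicate 1. A replicate block, for numbers that the data do not show to be pairs, gave 2 genes past the test with HPbCD added, as SFTPD then passed (adjusted p = 0.0288), and SFTPD passed with amiodarone as well (0.0360). SFTPB, SFTPC and SFTPD were each highest in replicate 2 and lowest in replicate 3 of all 3 LB groups, a hint from the data and not from the design, and ABCA3 was not. Of 127 calls on named genes, 36 were lost when at least 1 library was left out. NAPSA has no value under the filter of 5 TPM, and SFTPA1, SFTPA2, LAMP3 and NKX2-1 have values only without a filter.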
